A study of Mus musculus with 6 samples.

Results

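The Pax genes encode transcription factors that bind DNA through a paired domain, and the mouse genome holds 9 of them, Pax1 to Pax9. All 9 were found by gene name among the 56359 rows of the deposited expression table, 1 row each. RNA sequencing covered 6 embryo samples of strain C57BL/6 at embryonic day 12, of which 3 were wild type and 3 were Tmem216-/-. Tmem216 encodes a membrane protein of the transition zone at the base of the primary cilium, and mutants are compared with wild type to find which genes depend on it. The labels give no promoter, Cre driver or targeting scheme for the allele, no part of the embryo, and no statement that each sample is a separate animal. P values therefore speak only of sample-to-sample spread, and part of that spread may be technical. Levels are given as TPM, an abundance scaled by gene length and by the total of each sample, which can be compared between genes.

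The family falls into 4 groups of close relatives, and each group works in a few organs of the midgestation embryo. Pax1 and Pax9 act in the sclerotome, which forms the vertebral column, and in the pharyngeal pouches. Pax2, Pax5 and Pax8 act at the boundary of midbrain and hindbrain, and Pax2 and Pax8 also in kidney, ear and thyroid. Pax3 and Pax7 mark dorsal neural tube, neural crest and muscle progenitors, while Pax6 is needed in eye, forebrain, spinal cord and pancreas and Pax4 in the islets of the pancreas. Several of these sites, above all the neural tube and sclerotome, are patterned by Hedgehog signals that are read through the primary cilium.

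Of the 9 genes, 8 reached 1 TPM in at least 3 samples and were tested among 16411 genes. With limma on log2(TPM + 1), 0 of the 8 had an adjusted p under 0.05, against 0.104% of all tested genes (0.0975% higher and 0.00609% lower). At an unadjusted p under 0.05 there was 1 of 8, Pax8, against 4.46% of all genes. In 2 of the 8, Pax7 and Pax8, the 3 values of one genotype lay apart from the 3 of the other, as they did in 9.57% of all genes. The signs were split, with 4 higher and 4 lower in Tmem216-/-. The median log2 difference over the 8 was 0.05, and over all tested genes it was -0.01. The median size of the difference, whichever its sign, was 0.27 for the Pax genes and 0.12 for all genes, and the median SE was 0.21 and 0.17.

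The samples differed in tissue markers between and within genotypes. Tmem216 itself was 31.0, 30.7 and 17.4 TPM in wild type replicates 1 to 3 and 2.25, 0.51 and 1.39 TPM in Tmem216-/-, and it fell by 3.55 on the log2(TPM + 1) scale (limma adjusted p = 0.0266). The adjusted p was 0.0595 to 0.189 under 7 of the 15 alternatives, which were a pseudocount of 0.1, no filter, and leaving out wild type replicate 1, 2 or 3 or Tmem216-/- replicate 2 or 3. The summed level of 14 heart muscle genes was 55.9 to 82.1 TPM in wild type and 899 to 2319 TPM in Tmem216-/-. All 14 were higher in Tmem216-/-, and 12 of the 14 passed limma (adjusted p under 0.05). The number that passed was 0 without wild type replicate 1, wild type replicate 3 or Tmem216-/- replicate 3, and also with no filter. It was 3 without Tmem216-/- replicate 2 and 7 without Tmem216-/- replicate 1. The list's median log2 difference stayed between 3.58 and 4.14 with any 1 sample left out. Caudal trunk and hindlimb genes summed to 118 to 266 TPM and 27.4 to 103 TPM, and 13 of 13 tested were lower, with 0 past the test. With the replicate number as a block, 1 caudal gene passed. Forebrain genes summed to 225 to 285 TPM and 164 to 233 TPM, with 10 of 12 lower and 0 of 12 past the test. Without Tmem216-/- replicate 1, 1 forebrain gene passed. The 12 liver genes summed to 2489, 2868 and 230 TPM in wild type against 1228, 135 and 169 TPM in Tmem216-/-. Skeletal muscle genes, among them Actc1 and Ttn, which heart muscle also expresses, summed to 268 to 503 TPM and 774 to 837 TPM. Their median log2 difference was 0.22, and -0.02 to 0.51 with any 1 sample left out. The genotypes did not overlap in 2 of the 12, both higher in Tmem216-/-, against 4.75% of all genes. The part of heart muscle in the skeletal muscle sum was not tested. Spinal cord and hindbrain genes summed to 203 to 312 TPM and 189 to 230 TPM, and erythroid genes to 36891 to 44170 TPM and 27867 to 56629 TPM. In the skeletal muscle, spinal cord and hindbrain, and erythroid lists 0 genes passed the test. Extraembryonic markers stayed at 3.70 to 5.52 TPM in sum, and 9 of the 10 were too low to test. The part of these differences in the Pax values was not tested. In tissue samples, fewer cells of a type and less RNA per cell cannot be told apart.

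**Figure D1:**
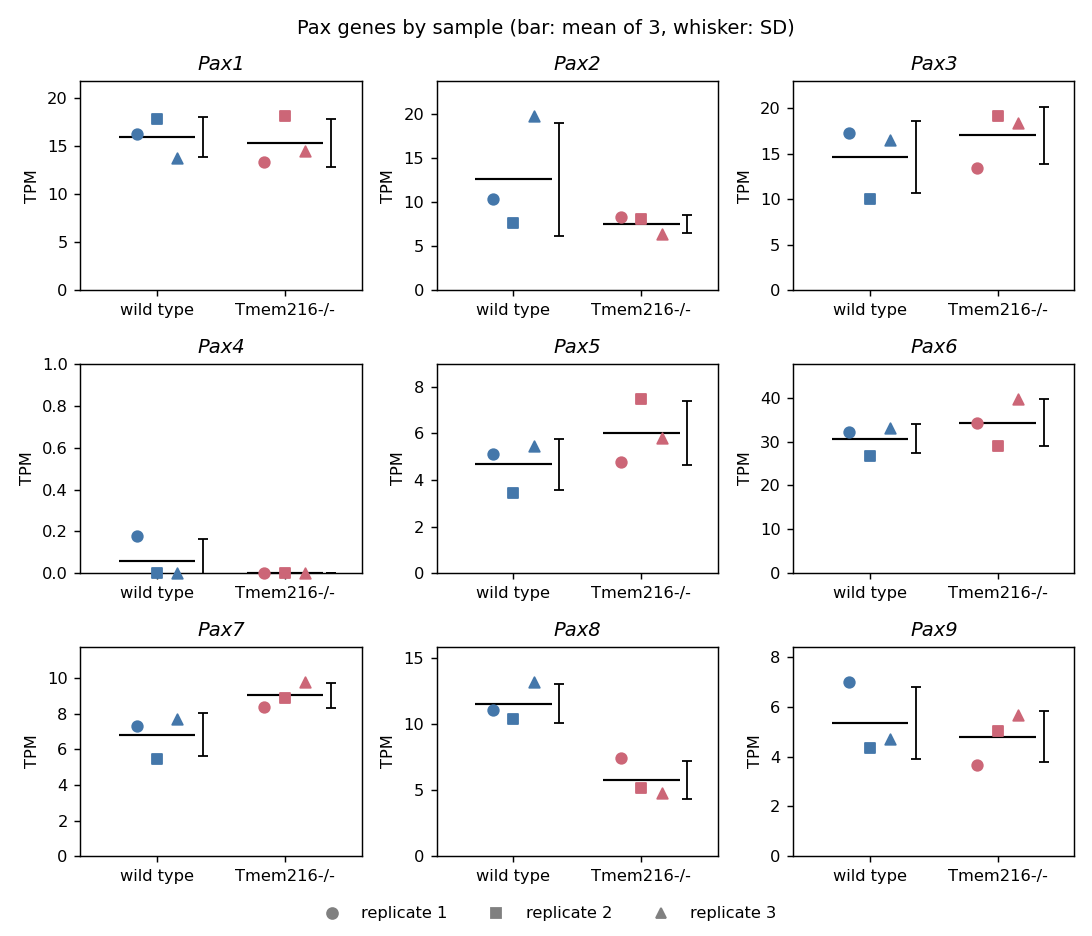
TPM of each Pax gene in the 6 samples, with 1 panel per gene, its own linear axis from 0, the genotypes on the horizontal axis and marker shapes for the replicates. Horizontal bars are means of 3 and whiskers are SD. The genotypes are separate for Pax7 and Pax8, and wild type replicate 3 stands high for Pax2.

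Pax6 had the highest level of the family in both genotypes and Pax4 the lowest. In wild type the order was Pax6 (30.7 TPM), Pax1 (15.95), Pax3 (14.6), Pax2 (12.6), Pax8 (11.6), Pax7 (6.83), Pax9 (5.36), Pax5 (4.67) and Pax4 (0.06). The values of neighbours in that order overlapped, except that Pax6 stood above Pax1, Pax8 above Pax7 and Pax5 above Pax4. In Tmem216-/- the order was Pax6 (34.3 TPM), Pax3 (17.0), Pax1 (15.3), Pax7 (9.04), Pax2 (7.56), Pax5 (6.02), Pax8 (5.80), Pax9 (4.80) and Pax4 (listed at 0). By mean, Pax8 thus moved from the fifth place to the seventh, and Pax7 from the sixth to the fourth. In Tmem216-/- the values of Pax8 overlapped those of Pax5 above it and Pax9 below it. Pax7 stood above Pax2 there by a narrow margin, with a lowest value of 8.38 TPM against a highest of 8.25 TPM. The family total was 102 ± 14.7 TPM in wild type and 99.9 ± 5.78 TPM in Tmem216-/- (mean ± SD, n = 3 each). Within that total the share of Pax8 was 10.4, 12.1 and 11.6% in wild type and 7.94, 5.10 and 4.58% in Tmem216-/-. The share of Pax7 was 6.87, 6.35 and 6.75% in wild type and 8.95, 8.84 and 9.34% in Tmem216-/-. Neither set of shares overlapped between the genotypes. The shares rest on the same Pax7 and Pax8 values that lay apart as TPM, as did 9.57% of all tested genes, so they are not a further result.

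**Figure D2:**
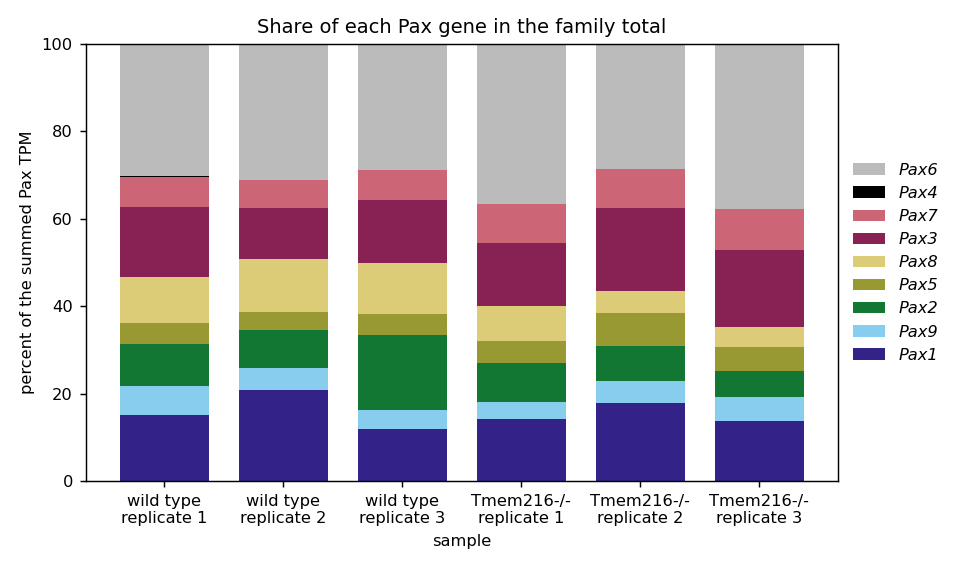
Share of each Pax gene in the summed TPM of the family (vertical axis, percent), with 1 bar per sample and relatives stacked side by side. The Pax8 band is 10.4 to 12.1% in wild type and 4.58 to 7.94% in Tmem216-/-, and Pax6 is the largest band in each sample.

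Pax8, a regulator of thyroid, kidney duct and the hindbrain boundary, had the largest difference in the family. It was 11.1, 10.4 and 13.2 TPM in wild type replicates 1, 2 and 3 and 7.44, 5.15 and 4.81 TPM in Tmem216-/-. All 3 Tmem216-/- values lay below all 3 wild type values. The means were 11.6 ± 1.49 and 5.80 ± 1.43 TPM (n = 3 each), a 1.99-fold difference. The log2 difference was -0.90 (SE 0.19, 95% interval -1.35 to -0.44; limma adjusted p = 0.382). It ranked 106th by p among the 16411 genes and did not pass the correction. An exact permutation test, two-sided, gave p = 0.1, which 3 against 3 samples cannot go below. When any 1 sample was left out, the log2 difference stayed between -1.06 and -0.80.

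Pax8 (ENSMUSG00000026976) is a protein-coding gene at chr2:24420560-24475599, minus strand, and positions of all members are GENCODE M21 gene bounds in mm10. Its promoter is shown because Pax8 has the largest difference of the family. The 250 bases before the RefSeq start site (GRCm38.p6, chr2:24475600-24475849, minus strand, no annotated exon) read as follows, with CpG pairs in capitals.
Pax8 promoter: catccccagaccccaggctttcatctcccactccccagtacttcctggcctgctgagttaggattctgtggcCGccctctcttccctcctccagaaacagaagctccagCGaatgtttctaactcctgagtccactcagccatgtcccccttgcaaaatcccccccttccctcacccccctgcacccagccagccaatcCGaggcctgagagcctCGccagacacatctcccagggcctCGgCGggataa
This window has 6 CpG pairs, the same as the median over 32851 RefSeq promoter windows, and 60.4% G and C against a median of 52.4%. It holds 1 CCAAT box, which ends 52 bases before the start and is found in 33.8% of all windows on either strand. No match was found here to the Gli site GACCACCCA (0.225% of windows on either strand) or to TATAAA (12.4%). Both motifs likewise had no match in any of the 10 windows of the 7 Pax genes with an entry.

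Pax2 (ENSMUSG00000004231, chr19:44756045-44837871, plus strand), the relative of Pax8 that builds kidney, optic stalk and inner ear, was 10.3, 7.59 and 19.7 TPM in wild type against 8.25, 8.04 and 6.39 TPM in Tmem216-/-. The genotypes overlapped, since wild type replicate 2 lay below Tmem216-/- replicates 1 and 2. The log2 difference was -0.57 (SE 0.32, 95% interval -1.34 to 0.20; limma adjusted p = 0.983). It was -0.21 without wild type replicate 3, the highest sample, and -0.85 without wild type replicate 2, the lowest of its group. Wild type replicate 3 also had the highest level of Oc90, an otoconial protein of the inner ear, at 34.6 TPM, against 18.4 and 1.46 TPM in wild type replicates 1 and 2. In Tmem216-/- Oc90 was 7.01, 11.7 and 1.99 TPM, so it overlapped between genotypes. The part of inner ear tissue in the Pax2 values was not tested.

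Pax5 (ENSMUSG00000014030, chr4:44524757-44710487, minus strand), which acts with Pax2 at the hindbrain boundary and later in B cells, went the other way in value. It was 5.11, 3.43 and 5.46 TPM in wild type against 4.79, 7.48 and 5.78 TPM in Tmem216-/-, and the genotypes overlapped. The log2 difference was 0.31 (95% interval -0.22 to 0.84; limma adjusted p = 0.983). It came to 0.14 when wild type replicate 2 was left out and to 0.16 when Tmem216-/- replicate 2 was. The summed level of Pax2, Pax5 and Pax8 was 26.5, 21.4 and 38.4 TPM in wild type against 20.5, 20.7 and 17.0 TPM in Tmem216-/-. The ratio of Pax8 to Pax5 within each sample was 2.17, 3.02 and 2.42 in wild type and 1.55, 0.689 and 0.832 in Tmem216-/-. The ratio of Pax2 to Pax8 overlapped, at 0.932, 0.732 and 1.49 in wild type and 1.11, 1.56 and 1.33 in Tmem216-/-. The sum and the Pax8 to Pax5 ratio did not overlap between genotypes (exact two-sided permutation p = 0.1 each, the smallest possible). Both contain the Pax8 values, which lay apart on their own. The ratio of Pax2 to Pax5, which holds no Pax8 value, was 2.02, 2.21 and 3.61 in wild type and 1.72, 1.07 and 1.11 in Tmem216-/-. That ratio did not overlap either (exact two-sided permutation p = 0.1), though Pax2 and Pax5 each overlapped alone. How often sums or ratios of other genes separate was not tested.

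Genes that work beside Pax2, Pax5 and Pax8 had values in both directions. Of 14 tested kidney and urogenital duct genes, 8 were higher and 6 lower, 0 passed limma, and the median log2 difference was 0.11 (0.015 without Tmem216-/- replicate 1). The genotypes did not overlap in 3 of the 14 that were lower (Emx2, Ret and Gdnf), against 4.83% of all genes, and in 2 that were higher (Osr1 and Cited1), against 4.75%. Their summed level was 184 to 224 TPM in wild type and 214 to 224 TPM in Tmem216-/-. Emx2, a transcription factor of the urogenital ridge and cortex, had a log2 difference of -0.48. Osr1, an early kidney regulator, was at 0.27 and Cited1, a nephron progenitor gene, at 0.59. Ret, the receptor of the ureteric bud, was 4.26, 5.01 and 4.81 TPM in wild type against 3.66, 3.88 and 4.10 TPM in Tmem216-/-. Its ligand gene Gdnf was 1.38, 2.68 and 1.29 TPM in wild type, and in Tmem216-/- it was 1.22, 1.25 and 0.88 TPM. Ret and Gdnf were picked out with their values in view. The tubule cadherin gene Cdh16 was too low to test.

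At the boundary of midbrain and hindbrain, 7 of 13 genes were higher and 6 lower, 0 passed limma, and the median was 0.01 (-0.12 leaving out wild type replicate 2 and 0.20 without wild type replicate 3). Cnpy1, which modulates FGF signals there, was 9.13, 11.4 and 12.9 TPM in wild type against 18.7, 28.3 and 21.5 TPM in Tmem216-/- (log2 difference 0.97, limma adjusted p = 0.313). Otx2, the midbrain and forebrain gene, was 40.2, 35.0 and 24.4 TPM in wild type against 40.8, 50.8 and 53.9 TPM in Tmem216-/- (0.55). In these 2 of the 13 genes all Tmem216-/- values lay above all wild type values, against 4.75% of all genes, and in 0 of the 13 they lay below. Fgf8, the organizer signal of the boundary, had a log2 difference of -0.47 and En2, an engrailed gene of that region, 0.86; these 2 were chosen after their values were seen. In the list of ear and thyroid genes, 5 of 12 could be tested, with 1 higher, 4 lower, 0 past the test and a median of -0.30. Leaving out wild type replicate 3 gave -0.02. Hmx3, an inner ear regulator, was 1.75, 1.26 and 3.54 TPM in wild type against 0.86, 0.90 and 0.75 TPM in Tmem216-/-. Otx1, also an ear gene, was at 0.19. The thyroid genes Tg, Tshr, Slc5a5 and Foxe1 were each under 1 TPM in all 6 samples, so thyroid tissue could not be followed.

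Pax7 (ENSMUSG00000028736, chr4:139737062-139833528, minus strand), which marks dorsal neural progenitors and muscle stem cells, had higher values in Tmem216-/-. It was 7.34, 5.45 and 7.71 TPM in wild type against 8.38, 8.92 and 9.81 TPM in Tmem216-/-, and the groups did not overlap. The means were 6.83 ± 1.21 and 9.04 ± 0.722 TPM (n = 3 each), a 1.32-fold difference. The log2 difference was 0.37 (SE 0.17, 95% interval -0.03 to 0.76; limma adjusted p = 0.983), and it did not pass. The exact permutation test gave p = 0.1 (two-sided), again the lowest it can reach. Without wild type replicate 2, the lowest sample, the log2 difference was 0.23.

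Pax3 (ENSMUSG00000004872, chr1:78101267-78197134, minus strand), its relative in neural tube, neural crest and migrating muscle precursors, was 17.3, 10.1 and 16.6 TPM in wild type against 13.5, 19.2 and 18.4 TPM in Tmem216-/-. The genotypes overlapped, and the log2 difference was 0.23 (95% interval -0.34 to 0.79; limma adjusted p = 0.983). Leaving out wild type replicate 2 brought it to -0.01. The ratio of Pax3 to Pax7 was 2.35, 1.84 and 2.15 in wild type and 1.61, 2.15 and 1.88 in Tmem216-/-, so the mix of the pair overlapped between genotypes. Wild type replicate 2 held the lowest value of the 6 samples for Pax3, Pax5, Pax6 and Pax7. It also had the lowest sum of dorsal neural tube genes, 208 TPM against 312 and 382 TPM in the other wild type samples and 273 to 294 TPM in Tmem216-/-. The part of neural tissue in these Pax values was not tested.

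Among 18 tested dorsal neural tube genes 12 were higher and 6 lower, 0 passed limma, and the median was 0.09. Leaving out wild type replicate 2 gave -0.14 and leaving out wild type replicate 3 gave 0.31. Zic1, a dorsal zinc finger gene, was at -0.13, Wnt3a, a roof plate ligand, at -0.38 and Gsx2, an interneuron progenitor gene, at -0.68. Of 14 muscle progenitor genes 12 were higher and 2 lower, 0 passed, and the median was 0.08 (-0.07 leaving out wild type replicate 1). Dmrt2, a dermomyotome gene, was at -0.32, and Itm2a, a membrane protein gene of early muscle and cartilage, at 0.10. Of 14 neural crest and melanoblast genes 4 were higher and 10 lower, 0 passed, and the median was -0.18 (-0.01 leaving out wild type replicate 3). Mitf, the master regulator of melanocytes, was 0.74, 1.02 and 1.03 TPM in wild type against 2.07, 2.16 and 1.17 TPM in Tmem216-/-. Ednrb, an endothelin receptor of the crest, was at 0.32 and Ngfr, a neurotrophin receptor, at -0.14.

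Pax6 (ENSMUSG00000027168, chr2:105668900-105697364, plus strand), the factor of eye, forebrain and spinal cord progenitors, had overlapping values in the genotypes. It was 32.2, 26.8 and 33.0 TPM in wild type against 34.2, 29.0 and 39.7 TPM in Tmem216-/-. The lowest value was in wild type replicate 2 and the highest in Tmem216-/- replicate 3. The log2 difference was 0.15 (SE 0.15, 95% interval -0.20 to 0.50; limma adjusted p = 0.983). The interval does not reach a doubling or a halving on the log2(TPM + 1) scale. Without Tmem216-/- replicate 3 the log2 difference was 0.04.

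Pax6os1, an antisense RNA gene whose locus overlaps the start of Pax6 on the other strand, showed lower values in Tmem216-/-. It was 11.7, 12.4 and 16.3 TPM in wild type against 10.2, 10.5 and 9.95 TPM in Tmem216-/-, and the groups did not overlap. The log2 difference was -0.35 (limma adjusted p = 0.983), and -0.22 without wild type replicate 3. The genes share 0 exonic bases in GENCODE M21, but the labels do not say whether reads were counted by strand. The ratio of Pax6 to Pax6os1 was 2.75, 2.16 and 2.02 in wild type and 3.35, 2.75 and 3.99 in Tmem216-/-, and the groups overlapped by a narrow margin. Their promoters are shown because the start sites lie 1434 bases apart on opposite strands and face each other. The 2 log2 differences have opposite signs, but neither passed the test. Each line gives the 250 bases before a RefSeq start site (GRCm38.p6, no annotated exon), with CpG pairs in capitals.
Pax6 promoter (chr2:105668646-105668895, plus strand): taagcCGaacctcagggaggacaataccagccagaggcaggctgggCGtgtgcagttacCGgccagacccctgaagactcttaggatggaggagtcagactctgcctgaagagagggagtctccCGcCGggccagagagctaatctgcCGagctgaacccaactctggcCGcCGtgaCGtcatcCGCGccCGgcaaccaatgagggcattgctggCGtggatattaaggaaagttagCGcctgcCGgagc
Pax6os1 promoter (chr2:105670331-105670580, minus strand): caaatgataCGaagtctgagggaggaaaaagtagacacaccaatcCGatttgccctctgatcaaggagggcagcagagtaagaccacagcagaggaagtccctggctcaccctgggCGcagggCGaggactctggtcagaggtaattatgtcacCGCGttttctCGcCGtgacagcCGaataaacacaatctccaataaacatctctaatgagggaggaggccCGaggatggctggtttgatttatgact
The Pax6 window has 15 CpG pairs and 1 CCAAT box ending 49 bases before the start. The Pax6os1 window has 10 CpG pairs and 2 CCAAT boxes, and the nearer ends 53 bases before the start.

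Most genes of the developing cortex, where Pax6 is expressed in progenitors, had lower values in Tmem216-/-, while those of Pax6 overlapped. Of 15 tested cortex genes, 10 were lower and 5 higher, and the median log2 difference was -0.48. Wild type and Tmem216-/- values did not overlap in 8 that were lower, against 4.83% of all genes, and in 2 that were higher, against 4.75%. In limma 0 of the 15 passed, and 10 had an unadjusted p under 0.05, against 4.46% of all genes. Without Tmem216-/- replicate 1, 1 gene of the list passed. This list, like the other lists here, was written with earlier results of these data known. It also shares Emx1 and Neurod6 with the forebrain markers above, so its counts are not separate support. Emx1, a gene of dorsal cortex, was 12.7, 9.80 and 10.5 TPM in wild type against 4.35, 1.42 and 1.38 TPM in Tmem216-/- (limma adjusted p = 0.203). Neurod6, a gene of young cortical neurons, was 6.20, 2.73 and 3.77 TPM in wild type against 1.56, 0.43 and 0.50 TPM in Tmem216-/-. Sfrp2, a secreted Wnt modulator, was at 0.13. Outside the cortex the picture differed in value. Of 16 intermediate and ventral neural tube genes 10 were higher and 6 lower, 0 passed, and the median was 0.03. Leaving out wild type replicate 2 gave -0.18 and leaving out wild type replicate 3 gave 0.29. Dbx1, a progenitor gene of the intermediate neural tube, was 19.97, 16.7 and 30.3 TPM in wild type against 36.0, 48.2 and 50.3 TPM in Tmem216-/- (log2 difference 1.00, limma adjusted p = 0.548). Irx3, an intermediate progenitor gene, was at 0.28 and Nkx2-2, a ventral one, at -0.41. In the eye list 8 of 16 genes could be tested, 4 higher and 4 lower with 0 past the test and a median of 0.03. With any 1 sample left out that median ran from -0.06 to 0.14, and it was -0.14 with no filter and 0.24 with a filter at 5 TPM. In 2 of the 8, Otx2 and Prox1, a lens and retina gene chosen after its values were seen, all Tmem216-/- values lay above all wild type values, against 4.75% of all genes. Cryba1, a lens crystallin, was 2.32, 1.00 and 11.2 TPM in wild type against 0.57, 1.32 and 0.82 TPM in Tmem216-/-.

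Pax4 (ENSMUSG00000029706, chr6:28442334-28449353, minus strand), the islet factor, was listed at 0.18 TPM in wild type replicate 1 and at 0 in the other 5 samples, so it could not be compared. The insulin genes Ins1 and Ins2 were listed at 0 in all 6 samples. Of 16 pancreas and islet genes 10 could be tested, 2 higher and 8 lower with 0 past the test and a median of -0.22 (0.01 without wild type replicate 3). Neurog3, the islet progenitor factor that is also used in the nervous system, was 1.77, 2.67 and 1.87 TPM in wild type against 0.98, 0.74 and 0.43 TPM in Tmem216-/- (limma adjusted p = 0.616). Mafa, a beta cell factor, was at -0.51, and Sst, the somatostatin gene of islets and neurons, at -0.25. B cell genes gave no base for reading Pax5 in blood: 7 of 10 were too low to test, and Ebf1, which is also a neural and mesenchymal gene, was at 0.09. Vpreb1 and Ikzf1, genes of lymphoid precursors, were at -0.48 and -1.05.

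**Figure D3:**
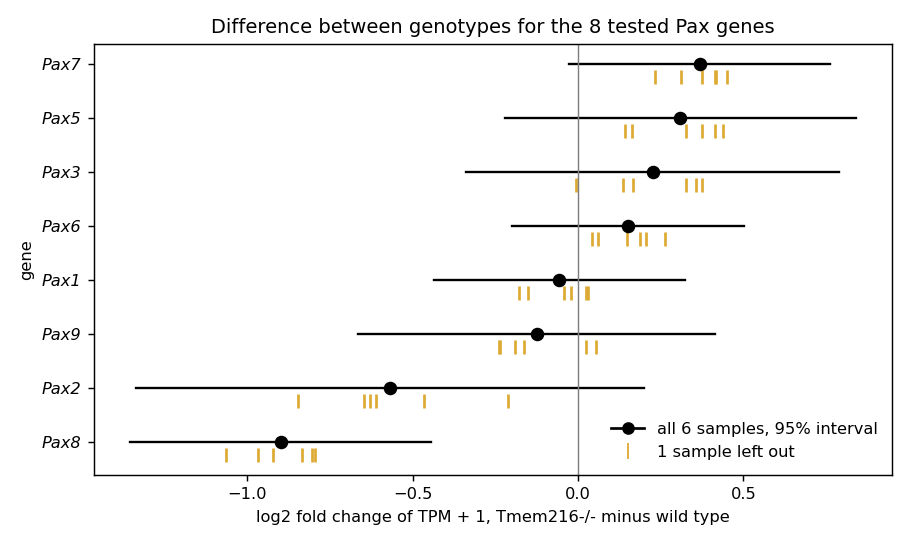
Log2 difference of TPM + 1 between genotypes for the 8 tested Pax genes (horizontal axis), ordered by size on the vertical axis. Dots with lines are the estimate from 6 samples with its 95% interval, and ticks are the values with 1 sample left out. The interval lies below 0 for Pax8 (-1.35 to -0.44) and includes 0 for the other 7.

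Pax1 (ENSMUSG00000037034, chr2:147361925-147393295, plus strand), the sclerotome and pharyngeal pouch factor, was 16.2, 17.8 and 13.8 TPM in wild type against 13.4, 18.2 and 14.5 TPM in Tmem216-/-. The genotypes overlapped almost fully, with a log2 difference of -0.06 (95% interval -0.44 to 0.32; limma adjusted p = 0.983). It turned to 0.02 without wild type replicate 2 and 0.03 without Tmem216-/- replicate 1. Pax9 (ENSMUSG00000001497, chr12:56691767-56712822, plus strand), its relative that also forms teeth and palate, was 7.02, 4.35 and 4.71 TPM in wild type against 3.67, 5.04 and 5.69 TPM in Tmem216-/-. Its log2 difference was -0.13 (95% interval -0.67 to 0.41; limma adjusted p = 0.983), and 0.05 without wild type replicate 1 and 0.02 without Tmem216-/- replicate 1. Summed, the pair was 21.3 ± 2.50 TPM in wild type and 20.1 ± 3.07 TPM in Tmem216-/- (n = 3 each). The exact two-sided permutation p of this sum was 0.6.

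Genes of the vertebral column were balanced, with 7 of 12 tested higher, 5 lower, 0 past the test and a median of 0.01 (-0.05 to 0.05 with any 1 sample left out). Nkx3-2, which is switched on by Pax1 and Pax9 in the sclerotome, was at -0.27, and Mfap2, a microfibril gene, at -0.09. Tbx18, which keeps the anterior part of each somite distinct, was 8.10, 9.88 and 6.90 TPM in wild type against 11.4, 15.2 and 12.9 TPM in Tmem216-/- (log2 difference 0.61, limma adjusted p = 0.788). In the pharyngeal pouch and tooth list 3 of 9 tested genes were higher and 6 lower, 0 passed, and the median was -0.32 (-0.06 leaving out wild type replicate 3). Bmp4, a growth factor of tooth and pouch, was 24.0, 20.1 and 26.9 TPM in wild type against 42.6, 38.3 and 35.1 TPM in Tmem216-/- (0.69, limma adjusted p = 0.310). Lhx8, a jaw and tooth mesenchyme gene, was 11.1, 4.42 and 17.6 TPM in wild type against 5.63, 4.77 and 2.97 TPM in Tmem216-/-, and Msx1, a partner of Pax9 in tooth mesenchyme, was at -0.26. The thymus and parathyroid genes Foxn1 and Gcm2 were too low to test.

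The sine oculis-type, Eya and Dach genes encode nuclear partners of several Pax proteins. All 10 were tested, 2 were higher and 8 lower, 0 passed, and the median was -0.07. Leaving out wild type replicate 3 gave 0.0033 and leaving out wild type replicate 2 gave -0.12. Eya1, a phosphatase and coactivator of ear and kidney, was 8.67, 7.12 and 8.57 TPM in wild type against 6.75, 8.07 and 6.61 TPM in Tmem216-/-. Six2, a nephron progenitor and mesenchyme gene, was at -0.12, and Six5, a widely expressed member, at -0.08. In each of the 10 genes the values of the genotypes overlapped.

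**Figure D4:**
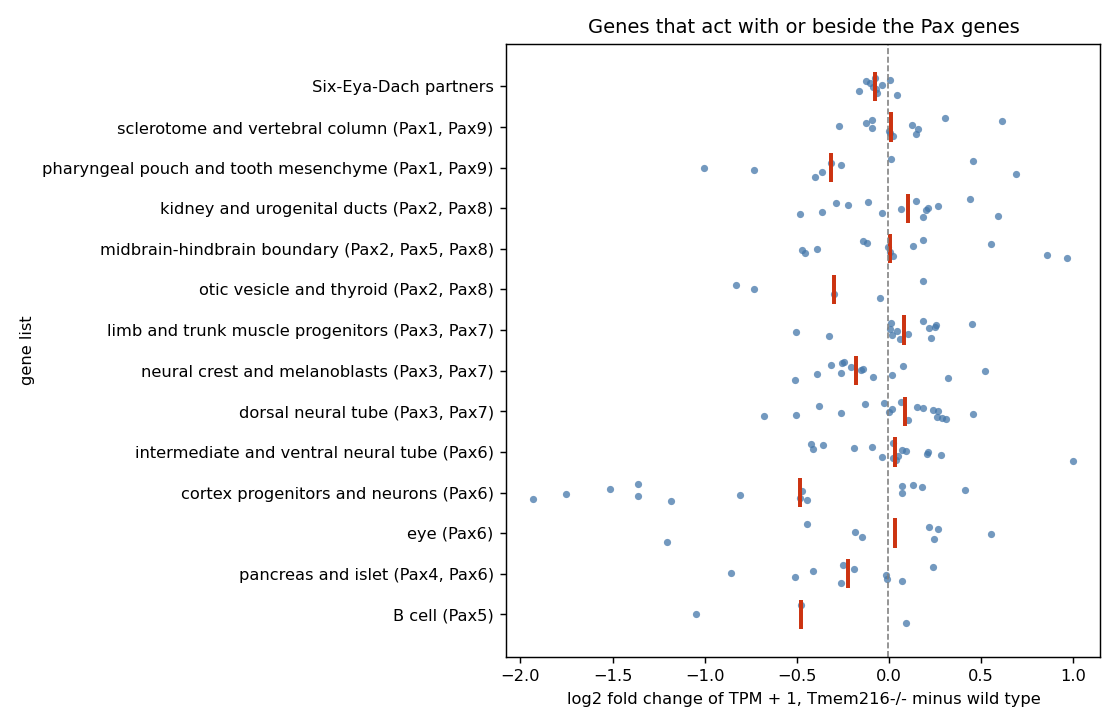
Log2 difference of TPM + 1 between genotypes (horizontal axis) for the tested members of each of the 14 companion gene lists (rows), with 1 dot per gene. Red ticks are list medians and the dashed line is the median of all tested genes, -0.01. The cortex list has a median of -0.48.

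Across the 6 samples some members varied together. Pearson correlations of log2(TPM + 1) are given as descriptions over n = 6 samples, which means that each pair of genes is compared within the same libraries. Both genotypes were pooled without centring on their means, so r also takes in any gap between genotypes or 1 outlying sample. The highest was 0.92 between Pax3 and Pax5, followed by 0.82 between Pax3 and Pax7 and 0.82 between Pax5 and Pax7. Pax2 and Pax8 stood at 0.75, and the lowest value was -0.77 between Pax1 and Pax6. These pairs lie at the ends of the range over all pairs of tested members and were named with their values seen. Among 11053 other genes, those most like Pax8 were Scarb1, a lipoprotein receptor gene (r = 0.999), and H2-DMa, an antigen presentation gene (r = 0.994). Scarb1 was 31.4, 30.5 and 33.6 TPM in wild type against 27.4, 24.4 and 24.2 TPM in Tmem216-/-. Most like Pax2 were Cercam (r = 0.999) and Ttll12 (r = 0.998), both with their highest value in wild type replicate 3. Pax6 was most like Wnt3, a neural Wnt ligand gene (r = 0.977), and Ppfia1 (r = 0.974), and Pax7 most like Ino80c (r = 0.981) and Usp3 (r = 0.980). Pax3 was most like Ppm1e (r = 0.989) and Rnf7 (r = 0.987), and Pax5 most like Fblim1 (r = 0.985) and Arrdc4 (r = 0.985). Nup205 was among the genes most like Pax1 (r = 0.972), and Pax9 was most like Bex2 (r = 0.969) and Slc10a3 (r = 0.968). The best match had r of at least 0.969 for each of the 8 members. Each match was picked as the largest of 11053 correlations over only 6 samples, so a high r arises from the choice itself. Whether these genes share regulation with the Pax genes was not tested.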

How the data were processed

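The authors deposited 1 table of TPM per gene for the 6 samples. Per the submitters' processing notes, the tools were CASAVA 1.8, HISAT2, StringTie and RSEM with build mm10, and no strand setting is given. Read depth is not known from TPM, so no count test was run. The table holds 56359 rows, and 27 gene names turned into dates were restored from the identifier. A further 2 columns equal to the group means were not used.

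The 16411 genes that reached 1 TPM in 3 or more samples were tested on log2(TPM + 1) with limma 3.58.1 in R 4.3.3, two-sided, using lmFit and eBayes with a trend. Benjamini-Hochberg adjustment covered every tested gene, with a threshold of 0.05. "Log2 difference" is Tmem216-/- minus wild type on that scale, which understates low genes. Exact permutation tests used all 20 splits. On simulated data for the Tmem216-/- comparison with 16411 genes, 58% of 50 genes changed 2-fold and 86% of 50 changed 4-fold were recovered, with 10 false among 180 calls. The changed genes, which also included 50 each at 8-fold and 16-fold, were drawn from higher-expressed genes only, and noise was independent between genes. In the data 17 genes were called, so the adjusted threshold was stricter there. The 58% is therefore not the power for a 2-fold difference of a Pax gene in these samples.

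The Pax members, the 14 lists of companion genes and the 8 marker lists were chosen with earlier results of these data known. They came from general knowledge, and some genes stand in more than 1 list. Named genes are the Pax members and Tmem216, the 2 genes of each companion list with the smallest p and the 1 with the largest mean, and the 2 genes most correlated with each member (mean of at least 5 TPM). Genes beside the Pax loci are also named, and some genes under these rules are not reported here. Positions come from GENCODE M21, because the deposited table has none, and promoters from RefSeq (GRCm38.p6). Pax3 and Pax4 have no promoter entry there. Figures used Python 3.11.15 and matplotlib 3.10.9.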

Additional observations from a re-analysis of the deposited data

How the results depend on the processing

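Each result was recomputed without the filter, with a higher filter (5 TPM), with a pseudocount of 0.1 or 5, with median-of-ratios scaling, with quantile normalization, with eBayes without a trend or robust, with the replicate number as a block, and with each sample left out. Under all 15, 0 Pax members passed limma, with 1 or 2 at an unadjusted p under 0.05. The log2 difference of Pax8 ran from -1.06 to -0.62 (adjusted p from 0.245 to 1.00) and that of Pax7 from 0.23 to 0.45 (0.490 to 1.00). The direction turned for Pax1 without wild type replicate 2 (0.02) or Tmem216-/- replicate 1 (0.03), for Pax9 without wild type replicate 1 (0.05) or Tmem216-/- replicate 1 (0.02), and for Pax3 without wild type replicate 2 (-0.01, -0.00618 before rounding). With samples left out, Pax1 ran from -0.18 to 0.029, Pax3 from -0.0062 to 0.38 and Pax9 from -0.24 to 0.053. The cause was not tested. Over all genes, 17 passed. With no filter 0 passed in limma (1207 at an unadjusted p under 0.05), and with samples left out 0 to 20 passed, the 0 without wild type replicate 1 (505 unadjusted). With the replicate block 25 passed, and Pax8 had an adjusted p of 0.686. Deviations of same-numbered samples correlated at 0.02, -0.09 and 0.10, so the numbers were not taken to pair samples. TPM keep no read depth, so the counting error of low members such as Pax4 is unknown.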

Other observations

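Genes beside the Pax loci are given as values. Nkx2-9, a ventral midline homeobox gene 78483 bases from Pax9, was 1.14, 0.81 and 1.35 TPM in wild type against 0.27, 0.05 and 0.21 TPM in Tmem216-/-. All 3 Tmem216-/- values lay below all 3 wild type values, but the gene was too low to be tested, and it was singled out after its values were seen. Slc25a21, a mitochondrial carrier gene that shares 189 exonic bases with Pax9 on the other strand, was 2.14, 3.12 and 0.29 TPM in wild type against 2.05, 0.41 and 0.85 TPM in Tmem216-/-. Nkx2-2 and Foxa2, the coding genes on either side of Pax1, had log2 differences of -0.41 and -0.29. Both act in the ventral neural tube, and neither passed limma (adjusted p = 0.983 each).

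Around Pax8, Psd4 was at -0.38 and Cacna1b, a neuronal calcium channel gene 128288 bases away, at -0.37, and the antisense transcript Gm13415, which shares 367 exonic bases with Pax8, reached at most 0.12 TPM. Around Pax2, Hif1an was at 0.00 and Slf2 at 0.21. Elp4, which lies next to Pax6 and holds its distant eye enhancers, was 18.7, 17.9 and 21.3 TPM in wild type against 17.3, 16.9 and 19.9 TPM in Tmem216-/-. Around Pax5, Melk was at 0.03 and Zcchc7 at 0.24. The transcript 5730488B01Rik, which shares 636 exonic bases with Pax5 on the other strand, was 1.10, 0.56 and 1.52 TPM in wild type against 1.62, 2.80 and 1.15 TPM in Tmem216-/-. Its reads and those of Pax5 cannot be told apart where they overlap unless strand was used in counting. The coding genes beside Pax7, Tas1r2 and Klhdc7a, were at 0.40 TPM or less in all samples. Sgpp2 and Epha4, beside Pax3, were at -0.01 and -0.06.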
